A study of Mus musculus with 16 samples.

Results

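The host genes described here carry the names of the vesicle traffic machinery: the Rab GTPases and the proteins named after them, the Tbc1d proteins, the sorting nexins (Snx), the Vps proteins and the exocyst subunits (Exoc). They were chosen by symbol alone, as any host gene whose name begins with Rab, Tbc1d, Snx, Vps or Exoc followed by a digit, with Tbc1d1 left out. The table of circular RNAs (circRNAs) listed 125 such genes among 8610 host genes, and 107 of them had a count among 6886 that did. These 107 genes carried 798 circRNAs with a count, out of 40381 in the whole table. After the filter on low counts, 75 of 3699 tested host genes and 175 of 7917 tested circRNAs belonged to the families. A name does not settle a role: Vps72, a chromatin protein, and Rab5if were taken in by the rule, with 4 and 3 counts in all, and neither was tested.

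Hearts came from male C57BL/6 mice in 4 groups. Sham mice had no infarct. The MIRI group, the model of myocardial ischaemia and reperfusion, had the left anterior descending coronary artery tied for 30 min and then released, and hearts were taken 1 week later. The MIRI+AICAR and MIRI+Compound C groups had the same injury plus AICAR, which activates the energy sensor AMPK, or Compound C, a kinase inhibitor used against AMPK. Their doses and timing are not given in the labels. Sham and MIRI had 3 libraries each and the AICAR and Compound C groups 5 each, and nothing in the labels tells how 32 mice became 16 libraries or whether replicates were separate mice.

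A circRNA forms when the end of an exon is spliced back to the start of the same or an earlier exon, which closes the exons between them into a circle. Each circle is recognised by reads over that back-splice junction, so a count belongs to 1 junction and needs no division by length, and the sum for a host gene grows with the number of circles it makes. Rab GTPases mark the membranes of the cell and recruit the proteins that move, tether and fuse vesicles, and most Tbc1d proteins switch Rabs off. Sorting nexins and the retromer, to which several Vps proteins belong, pull cargo out of endosomes. Other Vps proteins build the tethers and ESCRT complexes of endosomes and lysosomes, and the exocyst tethers vesicles to the plasma membrane. In heart muscle this machinery is known for carrying the glucose transporter GLUT4 to the surface, a step in which Tbc1d4 is phosphorylated by Akt and AMPK.

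The junctions of 6 circles are shown: 2 Snx13 circles, 1 of them called, the Tbc1d22a circle compared between treatments, and 3 with high counts. Each line gives the last 30 bases of the circle in lower case and then, after the back-splice, its first 30 bases in capitals, 5′ to 3′, from coding exons of GENCODE M21 transcripts on GRCm38.
Snx13 novel_circ_014771: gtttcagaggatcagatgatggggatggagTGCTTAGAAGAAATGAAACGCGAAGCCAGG
Snx13 novel_circ_014758: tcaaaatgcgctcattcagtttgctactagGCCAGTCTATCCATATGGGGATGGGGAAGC
Tbc1d22a novel_circ_024312: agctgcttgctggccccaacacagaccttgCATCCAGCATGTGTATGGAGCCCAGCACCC
Tbc1d14 novel_circ_048135: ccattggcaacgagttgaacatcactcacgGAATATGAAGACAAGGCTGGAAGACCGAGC
Snx12 novel_circ_067740: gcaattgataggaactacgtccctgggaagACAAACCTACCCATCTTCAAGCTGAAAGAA
Rab11a novel_circ_063973: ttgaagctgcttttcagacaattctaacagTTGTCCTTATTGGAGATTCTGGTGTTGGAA
These Snx13 circles lie on the plus strand of chromosome 12 and overlap. The smaller, novel_circ_014758, runs from exon 2 to exon 5 of 26 at chr12:35078900-35086984. Its exons sum to 428 nucleotides against a listed length of 438. The larger, novel_circ_014771, runs from exon 4 to exon 15 at chr12:35085939-35107556, and its exons sum to 1369 nucleotides against a listed length of 1379. The exons inside both circles may therefore differ from this transcript. The Tbc1d22a circle holds exons 2 to 4 of 13 at chr15:86234730-86239293 on the plus strand. The Tbc1d14 circle holds exons 5 to 8 of 15 at chr5:36519273-36525048 on the minus strand. The Snx12 circle holds exons 2 to 4 of 6 at chrX:101213774-101215578 on the minus strand. The Rab11a circle holds exons 2 to 4 of 5 at chr9:64725502-64728429 on the minus strand. An annotated miRNA gene, Gm47308, overlaps its span on the same strand.

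Total back-splice counts ran from 119948 to 240889 per library. Heart muscle markers were present in full, with counts for 14 of 14 genes led by Slc8a1, Ttn and Ryr2, and 13 of 14 leukocyte, 10 of 12 endothelial and 6 of 9 fibroblast markers were counted too, although the labels name cardiac muscle cells. A list of platelet and megakaryocyte genes had counts for 7 of 15 members, with Itga2b, Pf4, Ppbp, Gp1ba, Gp1bb, Gp9, Treml1 and Tubb1 at 0. Its summed level was 758 to 830 CPM (counts scaled to the library's total) in Sham and 716 to 933 in MIRI+Compound C. It was 14097 in MIRI 1 and 4137 in MIRI+AICAR 5, against 971 and 1129 in the other MIRI libraries and 1016 to 1137 in the other MIRI+AICAR libraries. MIRI 1 and MIRI+AICAR 5 therefore stand apart, and calls that rest on either are given with and without it. Libraries of a group correlated with r from 0.541 to 0.693 across circRNAs, and no pair of libraries held identical counts.

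Vesicle traffic circles took a small and even share of the back-splice counts. They made up 1.33% to 1.42% of counts in the 3 Sham libraries, 1.46% to 1.62% in MIRI, 1.48% to 1.61% in MIRI+AICAR and 1.42% to 1.52% in MIRI+Compound C. The Sham libraries were the lowest, and the 3 injured groups overlapped each other. The Vps proteins gave 30.0% of the family counts, Tbc1d 22.0%, Snx 20.3%, Rab 17.3% and Exoc 10.4%. In bulk tissue, fewer cells of a type and less circRNA per cell cannot be told apart, here or in any result that follows.

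As a sum, the exocyst genes stood lowest in Sham hearts. Their summed share was 0.115% to 0.136% of counts in Sham (mean 0.125% ± 0.0106, SD, n = 3), 0.152% to 0.169% in MIRI (0.162% ± 0.00853, n = 3), 0.155% to 0.190% in MIRI+AICAR (0.165% ± 0.0142, n = 5) and 0.139% to 0.175% in MIRI+Compound C (0.151% ± 0.0143, n = 5). No Sham library reached the lowest injured library, but the gap was narrow, from 0.136% in Sham 3 to 0.139% in MIRI+Compound C 1. The share of all members also separated Sham from the injured libraries. How many other sets of genes separate in this way was not counted. The other 4 families overlapped between Sham and MIRI, with the largest shares in Vps, from 0.375% in a Sham library to 0.490% in a MIRI+AICAR library. Exoc6b, a subunit related to yeast Sec15 that binds Rab11, supplied 1978 of the 4245 exocyst counts. The single genes did not all follow the sum. In MIRI against Sham, 6 of the 9 exocyst host sums had a log2 change above 0 and 3 below. Over all 3699 tested host genes these were 1914 and 1783.

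**Figure D1:**
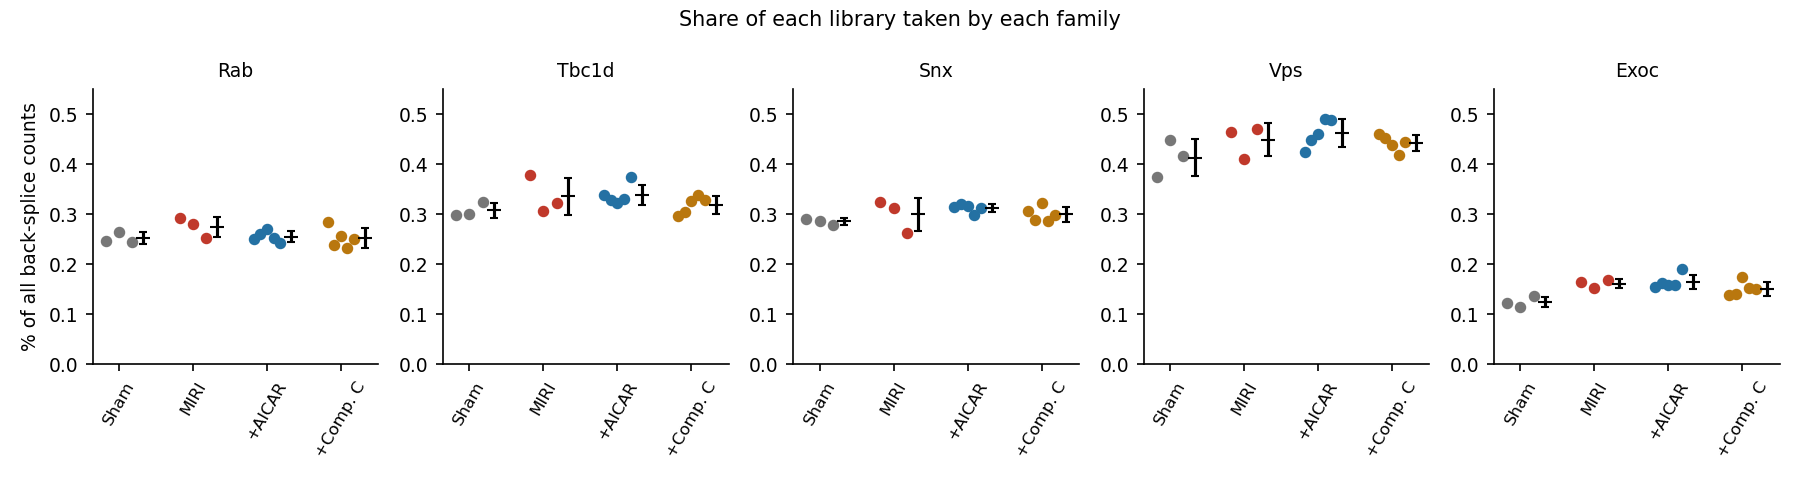
Share of all back-splice counts (y axis, %) taken by the circRNAs of each family in each library, by group; points are libraries and bars are mean ± SD (n = 3 in Sham and MIRI, n = 5 in the treated groups). Exoc shares in Sham, 0.115% to 0.136%, lie below every injured library, the lowest of which is at 0.139%. The other families overlap between Sham and MIRI. How many other sets of genes separate like Exoc was not counted.

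The circles looked like those of other genes in build. Of the 798 with a count, 92.9% were exonic, 6.39% held exon and intron and 0.752% were intronic, against 91.7%, 7.08% and 1.17% of all circRNAs with a host gene. The 695 that matched a transcript at both ends had a median of 4 exons and 487 nucleotides, against 4 exons and 493 nucleotides over 32842 matched circles. Circles starting at exon 2 made up 21.3% of them, against 21.9%. They lay inside the coding sequence in 94.0% of cases against 86.3%, and held a single exon in 0.863% against 2.73%. A length that is a multiple of 3 was found in 40.8% of exonic circles, against 37.9% of all. These are descriptions, and no difference between the families and other genes was tested.

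Many circles of a gene reused the same splice site. A start or an end was shared with another circle in 84.0% of cases, against 80.1% of all hosted circRNAs. Snx13 had 8 circles with the same start at exon 2, the start that novel_circ_014758 uses, and Vps13b had 8 circles that share a start. The number of circles per gene had a median of 4, against 3 over all host genes, and 28 genes had 10 or more while 19 had a single circle. Vps13b made the most, 45, followed by Vps13d with 35, Vps8 with 28, and Tbc1d14 and Vps50 with 26 each. Vps13b and Vps13d are large lipid transfer proteins that bridge membranes, Vps8 is a subunit of the CORVET tether of early endosomes, and Vps50 belongs to the EARP tether of recycling endosomes.

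The level of a gene came either from 1 circle or from many. Snx12, a small sorting nexin close to Snx3, gave 1366 counts, 99.9% of them from novel_circ_067740, the member circle with the most counts (1364). That circle held 84, 70 and 75 counts in Sham, 77, 101 and 57 in MIRI, 112, 97, 102, 106 and 82 in MIRI+AICAR, and 70, 77, 91, 83 and 80 in MIRI+Compound C. The groups overlap throughout. Rab11a, the GTPase of the recycling endosome, gave 1451 counts, 80.2% from novel_circ_063973. Snx27, an adaptor with a PDZ domain that hands cargo to retromer, spread 1318 counts over 24 circles, with 24.1% in the largest, and Vps13b spread 2252 over 45, with 25.8% in the largest.

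**Figure D2:**
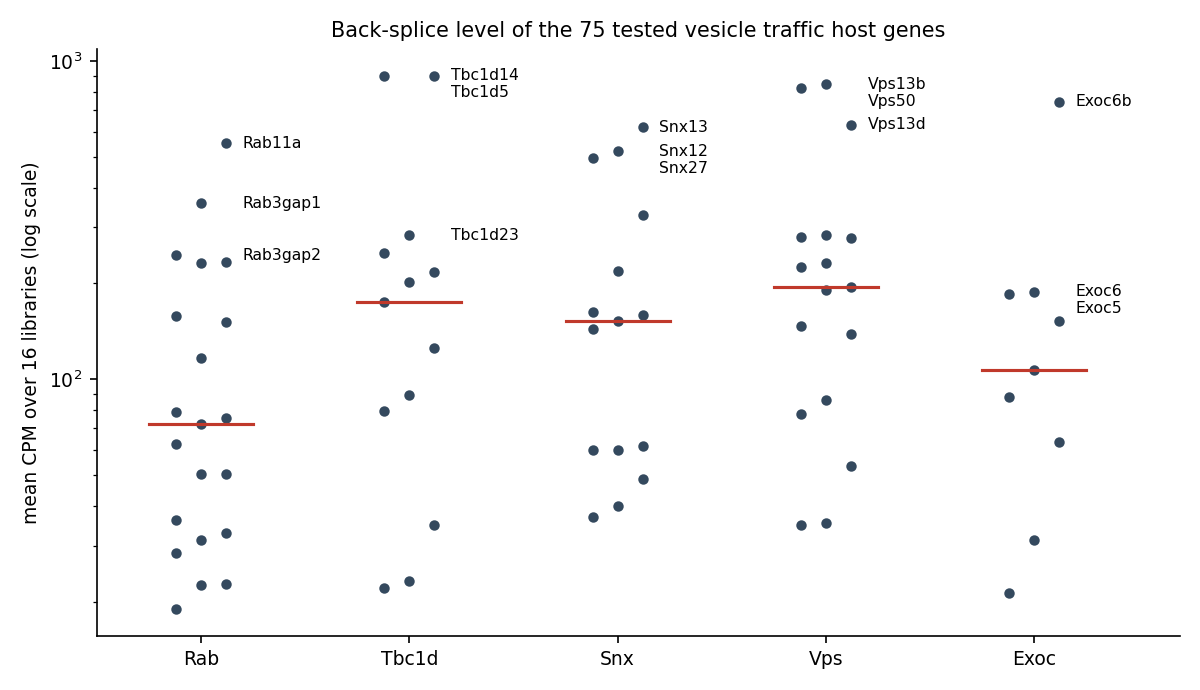
Mean CPM over 16 libraries (y axis, log scale) of the 75 tested host genes, each a point, summed over the circles of the gene and split by family, with the family median as a red line and the 3 highest genes of each family named. Tbc1d14 and Tbc1d5 stand at the top with 2417 and 2373 counts in all, and the Rab family has the lowest median.

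Among the genes named Rab, GTPases and their regulators and effectors alike, 31 of 40 had a count and 21 were tested. CPM of genes and circles are scaled by library with TMM factors and given as mean ± SD within a group. Rab11a stood highest, at 550 ± 84.4 CPM in Sham, 633 ± 181 in MIRI, 479 ± 25.7 in MIRI+AICAR and 574 ± 54.8 in MIRI+Compound C. The 2 subunits of the Rab3 GTPase activating complex, Rab3gap1 and Rab3gap2, followed with 959 and 647 counts in all. Of the Rabs that Tbc1d4 acts on in GLUT4 traffic, Rab10 had 301 counts, Rab8a 57 and Rab14 50, and Rab13 had none. Rab10 held 15, 15 and 33 counts in Sham, 23, 16 and 21 in MIRI, 12, 22, 22, 19 and 22 in MIRI+AICAR, and 17, 17, 19, 19 and 9 in MIRI+Compound C. These groups overlap, and no comparison called Rab10, Rab8a or Rab14 by edgeR's quasi-likelihood test, with adjusted p from 0.605 to 0.996. Rab7, the late endosome GTPase, had 51 counts from a single circle and did not pass the filter.

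Among the Tbc1d genes, 24 of 25 had a count and 13 were tested. Tbc1d14, a Rab11 binding protein that acts on autophagy, and Tbc1d5, which binds retromer and switches off Rab7, had the highest sums of all members. Tbc1d4 gave 338 counts, 63.3% from 1 of its 13 circles. Its counts were 11, 17 and 33 in Sham, 11, 14 and 15 in MIRI, 20, 22, 26, 33 and 25 in MIRI+AICAR, and 9, 29, 21, 31 and 21 in MIRI+Compound C. MIRI lay at the low end, and by CPM it overlapped each of the other groups. The log2 change was -0.61 (SE 0.364) in MIRI against Sham, 0.44 (SE 0.32) in MIRI+AICAR against MIRI and 0.53 (SE 0.33) in MIRI+Compound C against MIRI, with edgeR adjusted p of 0.669, 0.905 and 0.712. Tbc1d15, a Rab7 regulator at mitochondria, had 28 counts and Tbc1d17 had 5, and neither was tested.

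Among the sorting nexins, 20 of 23 genes had a count and 15 were tested. Snx13 led with 1674 counts over 25 circles, ahead of Snx12 and Snx27, and Snx5, a sorting nexin with a BAR domain that works with retromer cargo, had 884. The retromer core itself had few counts. Vps35 had 20 counts, Vps26a had 98, and Vps29 and Vps26b had none. Vps35l, of the related retriever complex, had 376 counts. It held 7, 14 and 12 counts in Sham, 36, 14 and 13 in MIRI, 26, 23, 31, 46 and 33 in MIRI+AICAR, and 26, 23, 28, 25 and 19 in MIRI+Compound C. Sham was lowest and in raw counts met MIRI at 14, and the change in MIRI against Sham (log2 0.89, SE 0.37) did not pass, with an edgeR adjusted p of 0.423. Without MIRI 1 it was 0.27 (adjusted p = 0.952).

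The 4 Vps13 genes, which make lipid transfer bridges, were all measured. Vps13b gave 2252 counts, Vps13d 1690, Vps13c 734 and Vps13a 393. Vps13b ran from 81 to 128 counts in Sham, 119 to 144 in MIRI, 128 to 224 in MIRI+AICAR and 102 to 163 in MIRI+Compound C, which overlap. Across the 4 genes and 4 comparisons, the log2 changes ran from -0.74 to 0.85, both in Vps13a, and no adjusted p was below 0.555 by edgeR. Vps13a held 55 counts in MIRI 1 against 20 and 15 in the other MIRI libraries, and without MIRI 1 these changes were 0.022 in MIRI+Compound C against MIRI and 0.081 in MIRI against Sham.

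Of 10 listed exocyst genes, 9 had a count and all 9 were tested, and Exoc8 had none. Exoc6b held 71, 75 and 102 counts in Sham, 104, 136 and 134 in MIRI, 103, 146, 173, 156 and 185 in MIRI+AICAR, and 97, 106, 156, 126 and 108 in MIRI+Compound C. In CPM, MIRI lay above Sham in all 3 libraries, at 881 ± 218 against 590 ± 72.1. The log2 change was 0.57 (SE 0.199), with an edgeR adjusted p of 0.271. How many of all tested host genes have MIRI above Sham in every library was not counted. Exoc1 to Exoc7 without Exoc6b ranged from 55 counts in Exoc7 to 499 in Exoc6, and none was called in any comparison. Exoc3l2 is an exocyst-related gene known from endothelium. It held 10, 5 and 5 counts in Sham and 24, 15 and 0 in MIRI, which overlap.

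The first comparison asks what injury changed. In MIRI against Sham, no family member was called: 0 of 175 circRNAs, where 0.0253% of all 7917 were called by edgeR's quasi-likelihood test with Benjamini-Hochberg adjustment, and 0 of 75 host genes, where 0.162% were. DESeq2 called 0 members too, of 175 circRNAs and 29 host genes with an adjusted p, against 0.0885% and 1.17% of all. At an unadjusted p under 0.05, 12 circRNAs passed (11 higher, 1 lower), close to the 6.82% of all, and 6 host genes passed, all higher, against 9.03%. The median log2 change of member circRNAs was 0.15 against 0.03 over all tested, and 106 of 175 were above 0. By family it ran from -0.06 in Tbc1d to 0.41 in Exoc. The median of the host sums was 0.00, against 0.02 over all.

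Of the 3 circles nearest to a call after injury, those of Snx13 and Vps54 had no count in Sham. Snx13 novel_circ_014771 held 0, 0 and 0 counts in Sham, 4, 4 and 6 in MIRI, 7, 14, 8, 10 and 8 in MIRI+AICAR, and 4, 3, 9, 4 and 9 in MIRI+Compound C. Every injured library had it and no Sham library did. Against a floor of 3 counts per Sham library it was at least 1.56-fold higher in MIRI, with an edgeR adjusted p of 0.205. Vps54 novel_circ_011043, from a subunit of the GARP tether at the Golgi, was likewise at 0 in Sham and at 2 to 11 counts in all 13 injured libraries. It was at least 1.18-fold higher in MIRI by the same floor, with an adjusted p of 0.376. Because no count of 1 occurs in the table, a circle at 0 can have had 1 read. Both circles passed the filter on low counts through injured libraries alone, so the zeros in Sham are no separate support. In MIRI against Sham, 3 of 175 member circRNAs and 170 of 7917 tested had 0 counts throughout 1 of the groups.

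The test for any difference among the 4 groups called Snx13 novel_circ_014771, which passed the filter through injured libraries alone (edgeR adjusted p = 0.0430). It was the only 1 of 175 member circRNAs, where 0.531% of all were called, and 8 members against 8.79% of all had an unadjusted p under 0.05. Another Snx13 circle, novel_circ_014758, shares exons 4 and 5 with it and was at 335 ± 100 CPM in Sham, 414 ± 21.6 in MIRI, 428 ± 55.5 in MIRI+AICAR and 402 ± 37.8 in MIRI+Compound C. It was counted in all 3 Sham libraries, at 25, 52 and 60 counts. The call rested on few counts: it was lost without any 1 of the Sham or MIRI+AICAR libraries, or without MIRI+Compound C 1, 3, 4 or 5, with adjusted p from 0.0606 to 0.159. It was kept without any 1 MIRI library and without MIRI+Compound C 2, at 0.0332 to 0.0424.

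Other changes after injury were measured but not called. Tbc1d12 held 23, 31 and 27 counts in Sham and 43, 52 and 33 in MIRI, with no overlap (log2 0.60, SE 0.236, edgeR adjusted p = 0.363). Rab31, a GTPase between the Golgi and endosomes, held 0, 3 and 5 counts in Sham and 6, 10 and 9 in MIRI (log2 1.60, SE 0.68, adjusted p = 0.458). Both lay higher in MIRI in each library, but how many of all tested features separate in this way was not counted. On the lower side, Vps16 novel_circ_040164, from the shared core of the HOPS and CORVET tethers, held 7, 11 and 14 counts in Sham and 2, 3 and 7 in MIRI (log2 -1.40, SE 0.546, adjusted p = 0.542).

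**Figure D3:**
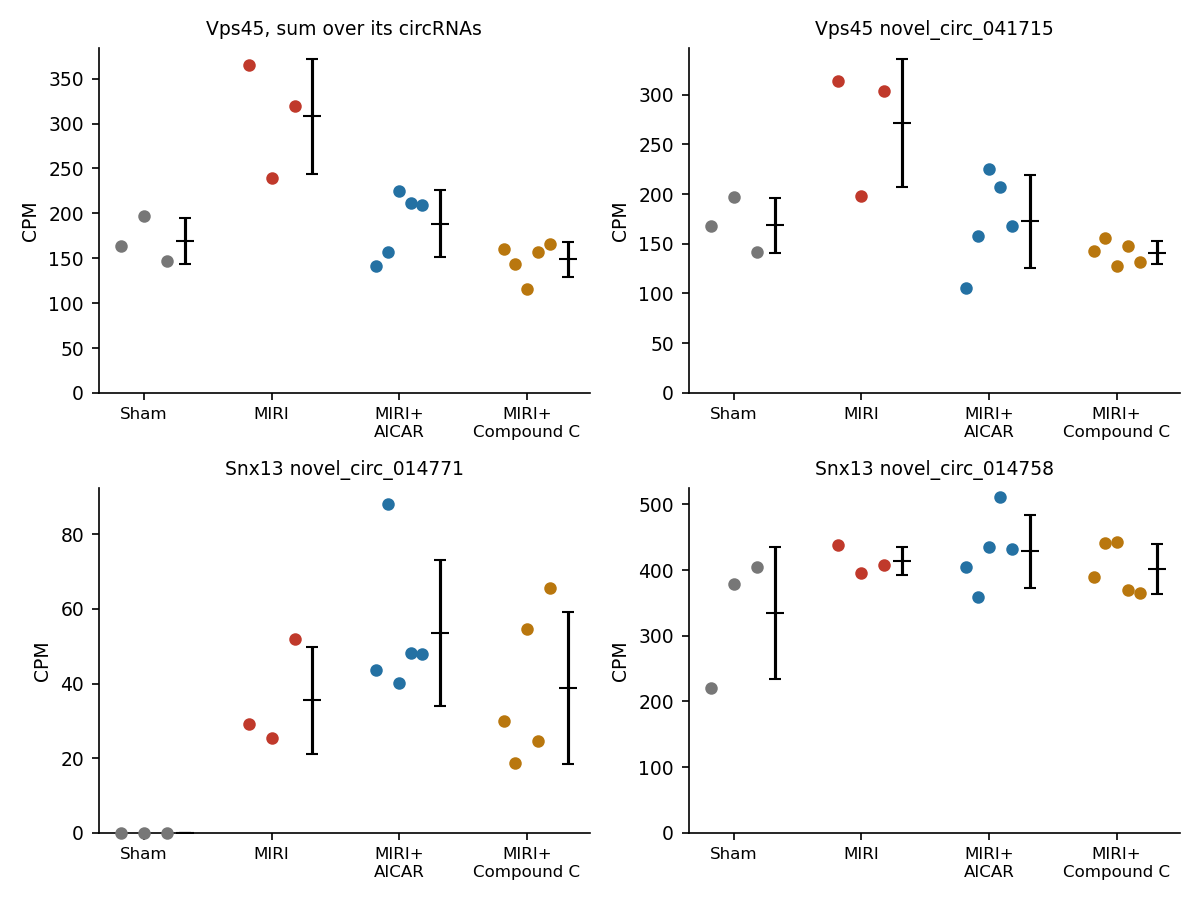
CPM per library (y axis) of the Vps45 sum, the main Vps45 circle and 2 Snx13 circles, by group; points are libraries and bars are mean ± SD. The Vps45 sum is 239.5 to 365 CPM in MIRI and 116 to 165 in MIRI+Compound C, and Snx13 novel_circ_014771 is at 0 in the 3 Sham libraries.

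Among the family genes, only Vps45 was called in a comparison with treatment, and only in MIRI+Compound C against MIRI. That call did not hold under every alternative, as given below for Vps45. It encodes a Sec1/Munc18 protein that works with SNAREs of the endosome and trans-Golgi network. Its 4 circRNAs gave 19, 29 and 23 counts in Sham, 54, 40 and 38 in MIRI, 25, 27, 50, 49 and 39 in MIRI+AICAR, and 22, 25, 21, 28 and 24 in MIRI+Compound C. In CPM this was 169 ± 25.8 in Sham (n = 3), 308 ± 63.7 in MIRI (n = 3), 189 ± 37.3 in MIRI+AICAR (n = 5) and 149 ± 19.8 in MIRI+Compound C (n = 5). All 3 MIRI libraries stood above every library of the other groups. MIRI+Compound C lay lower than MIRI by a log2 change of -1.05 (SE 0.223), which passed with an edgeR adjusted p of 0.0204, and in DESeq2 with 0.00803.

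The same gene was the only 1 of 75 host sums called in the test for any difference among the groups (edgeR adjusted p = 0.0314), where 2.7% of all were called. At an unadjusted p under 0.05 there were 6, against 12.5%. MIRI lay above Sham by 0.86 (SE 0.255) and MIRI+AICAR differed from MIRI by -0.69 (SE 0.214), but neither passed, with edgeR adjusted p of 0.191 and 0.455. These comparisons share the 3 MIRI libraries, so they are not separate observations. MIRI+AICAR and MIRI+Compound C differed by 0.36 (SE 0.20, adjusted p = 0.515).

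The fall of Vps45 was carried mainly by novel_circ_041715, 86.0% of its counts. That circle held 19, 27 and 21 counts in Sham, 43, 31 and 35 in MIRI, 17, 25, 45, 43 and 28 in MIRI+AICAR, and 19, 25, 21, 24 and 18 in MIRI+Compound C. In CPM it was 272 ± 64.1 in MIRI and 141 ± 11.7 in MIRI+Compound C, without overlap, but on its own it was not called (log2 -0.93, SE 0.252, edgeR adjusted p = 0.229). The second circle, novel_circ_041714, held 6, 9 and 3 counts in MIRI and 3, 0, 0, 4 and 3 in MIRI+Compound C. The call on the sum was lost without MIRI 1 (log2 -0.893, adjusted p = 0.268), without MIRI+Compound C 2 (0.0562) or 3 (0.0813), and in a fit of the 2 groups alone (0.0549). In the any-difference test it was lost without MIRI 1 (0.213), MIRI 3 (0.0823) or MIRI+Compound C 2, 3 or 4 (0.0554, 0.0650 and 0.0550). MIRI 1, the library with the high platelet-type list, had the highest Vps45 sum at 365 CPM. MIRI 3, where that list was at its lower level, had 319, and the part of that list in the result was not tested.

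In MIRI+Compound C against MIRI, Vps45 was the only member called, 1 of 75 host genes where 0.595% of all were called, and 0 of 175 circRNAs where 0.0884% were. DESeq2 called 1 of the 41 member host genes with an adjusted p, against 1.56% of all, and 0 of 53 member circRNAs, against 0.545%. At an unadjusted p under 0.05 there were 4 circRNAs (3 higher, 1 lower) against 6.47% of all, and 5 host genes (2 higher, 3 lower) against 9% of all. The median log2 change was -0.07 for member circRNAs and -0.04 for host genes, against 0.01 and 0.00 over all tested. Members that did not pass included Exoc4, at 13, 13 and 0 counts in MIRI and 15, 18, 18, 29 and 21 in MIRI+Compound C (log2 1.07, SE 0.469, edgeR adjusted p = 0.437). Retromer's Vps26a held 4, 2 and 0 counts in MIRI and 7, 12, 10, 5 and 3 in MIRI+Compound C (log2 1.67, SE 0.739, adjusted p = 0.453). MIRI 3 was at 0 for Exoc4, Vps26a and Exoc3l2. Exoc3l2 was called in this comparison without MIRI 3 (log2 -1.85, adjusted p = 0.0301), and not with it (log2 -1.33, SE 0.557, adjusted p = 0.393), and without MIRI 1 it was at -0.52 (adjusted p = 0.964). Without MIRI 1 the Vps26a change was 2.60 (adjusted p = 0.521).

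In MIRI+AICAR against MIRI no member was called, 0 of 175 circRNAs against 0.0253% of all and 0 of 75 host genes against 0.027%. DESeq2 gave 0 members as well, against 0.0632% and 0.0812% of all. At an unadjusted p under 0.05 there were 5 circRNAs (2 higher, 3 lower) against 4.9% of all, and 5 host genes (3 higher, 2 lower) against 6.76%. The median log2 change was 0.07 for member circRNAs and 0.04 for host genes, against 0.03 and 0.02. Rab11a held 123, 98 and 57 counts in MIRI and 90, 77, 105, 108 and 94 in MIRI+AICAR. The groups overlap, and the log2 change of -0.41 (SE 0.164) had an edgeR adjusted p of 0.591. Without MIRI 1 it was -0.15 (adjusted p = 0.984). Vps8 lay higher in all 5 MIRI+AICAR libraries, at 38, 51, 50, 55 and 44 counts against 26, 29 and 22. The log2 change was 0.44 (SE 0.21), with an edgeR adjusted p of 0.734. Vps8 was named for its small p in this comparison, so little overlap follows from that choice. In CPM, Sham (184 to 268) overlapped MIRI+AICAR (214 to 296).

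**Figure D4:**
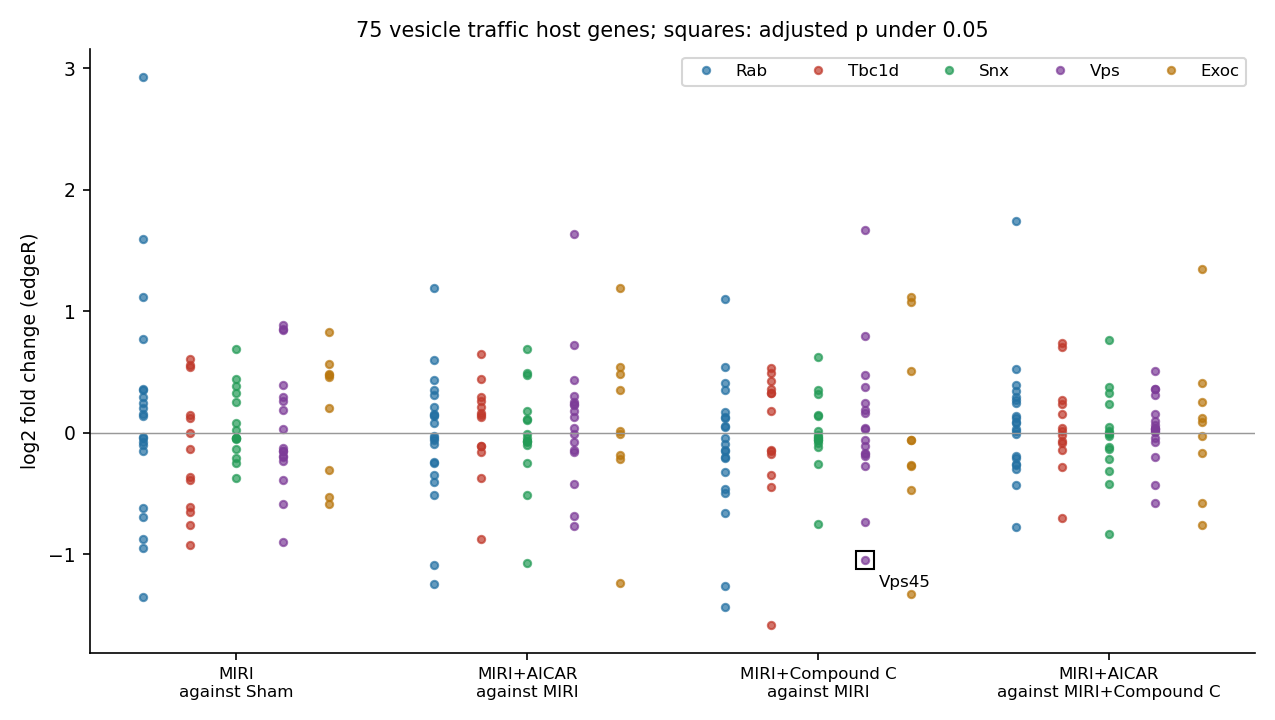
Log2 fold change (y axis, edgeR) of the 75 tested host genes in the 4 comparisons, coloured by family; each point is a gene, and a square marks an adjusted p under 0.05. The Vps45 point at -1.05 in MIRI+Compound C against MIRI is the only square.

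The direct comparison of the AMPK activator with the inhibitor, MIRI+AICAR against MIRI+Compound C, had the most calls of the 4 comparisons and none in the families. It is the only 1 of the 4 with 5 libraries in each group, so its number of calls does not measure a larger effect. It called 0 of 175 member circRNAs against 0.556% of all, and 0 of 75 host genes against 1.95%. DESeq2 called 0 of 53 and 0 of 56 members with an adjusted p, against 3.23% and 3.47% of all. At an unadjusted p under 0.05 there were 6 circRNAs (5 higher, 1 lower) against 8.51% of all, and 6 host genes (5 higher, 1 lower) against 11.9%. The median log2 change was 0.09 for member circRNAs and 0.03 for host genes, against 0.03 and 0.02 over all.

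The members named below for this comparison were picked for the smallest p in the families, so little overlap between their groups follows from that choice. How many of all tested features have groups that do not overlap was not counted. Tbc1d22a novel_circ_024312 held 6, 6 and 6 counts in Sham, 0, 3 and 4 in MIRI, 4, 4, 0, 5 and 4 in MIRI+AICAR, and 9, 13, 8, 11 and 11 in MIRI+Compound C. The MIRI+Compound C libraries were all above those of MIRI and MIRI+AICAR, at 69.0 ± 13.2 CPM against 19.6 ± 11.0 in MIRI+AICAR. The log2 change of MIRI+AICAR against MIRI+Compound C was -1.80 (SE 0.493), with an edgeR adjusted p of 0.115, and 0.0413 in a fit of those 2 groups alone. Against MIRI, MIRI+Compound C differed by 1.95 (SE 0.637, adjusted p = 0.401).

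Tbc1d32, a protein of the cilium, came closest among the host sums. It held 30, 36, 51, 41 and 53 counts in MIRI+AICAR and 13, 22, 15, 28 and 26 in MIRI+Compound C, or 214 ± 46.5 against 128 ± 40.6 CPM. These overlap by CPM, and the log2 change of 0.74 (SE 0.223) had an edgeR adjusted p of 0.0884. Rab6a, a Golgi GTPase, held 7, 7, 15, 15 and 15 counts in MIRI+AICAR and 2, 0, 7, 3 and 2 in MIRI+Compound C. By CPM the groups do not meet (log2 1.74, SE 0.557, adjusted p = 0.116).

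Other members showed the same order without a call. Exoc3l2 held 11, 19, 24, 14 and 19 counts in MIRI+AICAR and 4, 7, 9, 3 and 5 in MIRI+Compound C, with a log2 change of 1.35 (SE 0.480), an edgeR adjusted p of 0.184, and 0.0301 in a fit of those 2 groups alone. Endothelial markers moved beside it in the other direction: the summed endothelial list was 2116 to 2853 CPM in MIRI+AICAR and 2898 to 4507 in MIRI+Compound C, and its part in the result was not tested. Vps13d novel_circ_045580 held 7, 15, 7, 15 and 11 counts in MIRI+AICAR and 2, 4, 4, 2 and 4 in MIRI+Compound C (log2 1.52, SE 0.50, adjusted p = 0.232). Each lay higher with AICAR in all 5 libraries.

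Tbc1d14 showed circles of 1 gene that did not move together. The single-exon circle novel_circ_048145 of exon 3 held 24, 23 and 20 counts in Sham, 142, 34 and 32 in MIRI, 53, 38, 39, 60 and 95 in MIRI+AICAR, and 35, 49, 65, 68 and 48 in MIRI+Compound C. MIRI 1 and MIRI+AICAR 5 were the highest, at 1036 and 569 CPM, and these are the libraries with the high platelet-type list. The circle of exons 5 to 8, novel_circ_048135, was at 452 and 420 CPM in the same libraries, within the range of the others (156 to 599). The difference between the circles was not tested, nor was the part of the platelet-type genes.

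For novel_circ_048145, MIRI against Sham gave a log2 change of 1.58 (SE 0.426) and an edgeR adjusted p of 0.281, and all 3 MIRI libraries lay above Sham. It was called without MIRI 2 (log2 1.94, adjusted p = 0.0158) and without the filter on low counts (7.66e-05). Without MIRI 1 it was at 0.53 (adjusted p = 0.886). The value without the filter comes from the same libraries as the 0.281, in a fit that also held circRNAs of very low count. It is no measure of a stronger difference. MIRI+AICAR and MIRI+Compound C lay below MIRI by -0.66 (SE 0.342, adjusted p = 0.977) and -0.55 (SE 0.344, adjusted p = 0.885). Without MIRI 1 these turned to 0.410 and 0.509. The direction of treatment in this circle therefore depended on 1 library.

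**Figure D5:**
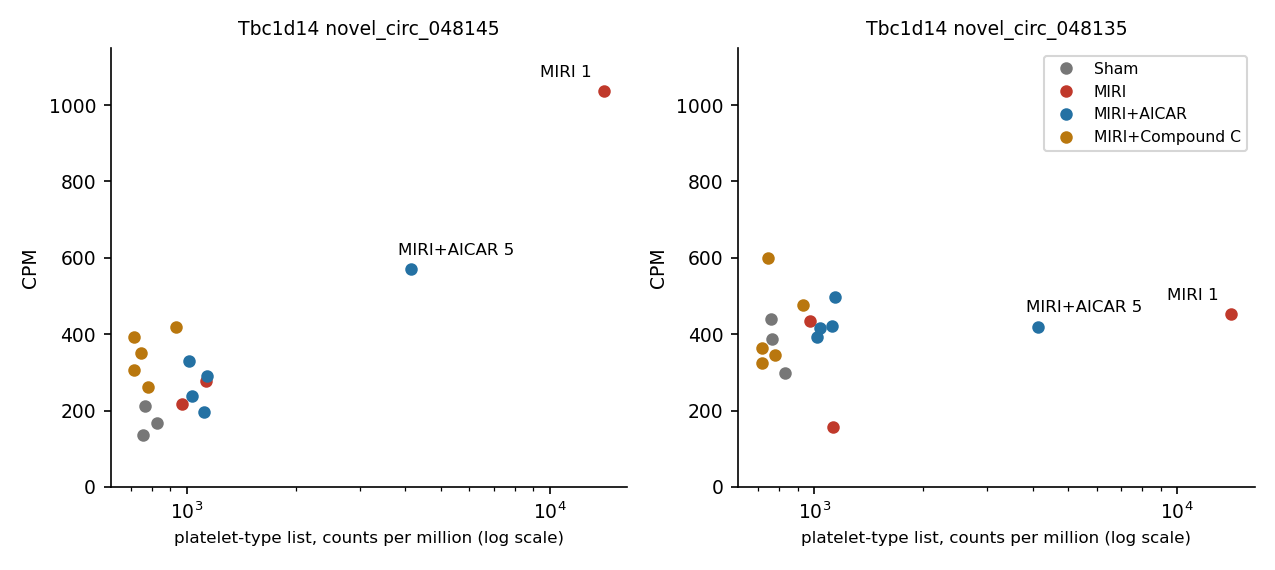
CPM (y axis) of Tbc1d14 novel_circ_048145 and novel_circ_048135 against the summed level of the platelet-type list (x axis, CPM, log scale); points are the 16 libraries, coloured by group. MIRI 1 and MIRI+AICAR 5 lie highest in the left panel, at 1036 and 569 CPM, and within the other libraries in the right panel.

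The partners of these families were counted from lists of other traffic genes. Of 55 Rab activators, inhibitors and effectors, 31 host sums were tested. Of 41 genes for endosome sorting, tethering and ESCRT there were 15, of 46 SNAREs and fusion factors 23, and of 53 coats and adaptors 30. MIRI against Sham and MIRI+AICAR against MIRI called none of them by edgeR, and 1 to 3 genes of each list had an unadjusted p under 0.05, where 9.03% and 6.76% of all host genes did. In MIRI+Compound C against MIRI, 2 genes of these lists were called, where 0.595% of all were, and in MIRI+AICAR against MIRI+Compound C 1 was, where 1.95% were. In MIRI+Compound C against MIRI, the ESCRT-I subunit Mvb12b fell from 347 ± 427 to 78.1 ± 17.96 CPM (log2 -2.15, SE 0.479, edgeR adjusted p = 0.0342). Its MIRI libraries ran from 75.6 to 839 CPM and its MIRI+Compound C libraries from 55.1 to 101, which overlap. Without MIRI 1, the library with the high platelet-type list, its log2 change was -0.39, with an adjusted p of 0.953, and without any 1 of the MIRI+Compound C libraries the call was lost at 0.0670 to 0.112.

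The Rab GTPase activating protein Rabgap1l fell in the same comparison, from 1870 ± 901 to 1105 ± 68.0 CPM (log2 -0.76, SE 0.180, edgeR adjusted p = 0.0473), with no overlap between 1335 to 2910 and 1021 to 1179. Without MIRI 1 this was -0.28, with an adjusted p of 0.704, and without any 1 of the MIRI+Compound C libraries the call was lost at 0.0831 to 0.114. In MIRI+AICAR against MIRI+Compound C, the dynamin gene Dnm3 was lower, at 378 ± 37.1 against 643 ± 141 CPM (log2 -0.75, SE 0.151, adjusted p = 0.00407), the groups did not overlap, and the call was kept without any 1 library of either group. The SNAREs and fusion factors had no call in any of the 4 comparisons. Their medians ran from -0.19 in MIRI+AICAR against MIRI to 0.13 in MIRI+AICAR against MIRI+Compound C.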

How the data were processed

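CircRNAs were sequenced in mouse hearts after ribosomal RNA removal and RNase R digestion of linear RNA, in stranded libraries, per the labels' protocols. The deposited table holds back-splice counts from CIRI, per the file header, with no normalisation. The sources used here give no CIRI version, aligner or read minimum. No count of 1 occurs, and 28473 circRNAs are at 0 throughout. Host gene sums leave out 1913 counted circRNAs with no symbol. The submitters' processing notes name the build mm9, but GENCODE M21 (GRCm38) has an exon boundary at 96.5% of exonic starts and 96.3% of ends, against 0.320% and 0.317% after moving by 1 base, so coordinates are given on GRCm38.

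Counts per circRNA, and summed per host gene, were filtered by filterByExpr (minimum count 5, minimum total 15), scaled by TMM (factors 0.974 to 1.04) and fitted once over the 4 groups and 16 libraries with edgeR 4.0.16 (limma 3.58.1, R 4.3.3), by the quasi-likelihood F test with Benjamini-Hochberg adjustment over all features. Tests were two-sided and called at an adjusted p under 0.05. The SE is the absolute log2 change divided by the square root of F. DESeq2 1.42.0 was an alternative, beside other scalings, filters, fits of 2 groups, a replicate block and left-out libraries. Figures used Python 3.11.15 and matplotlib 3.10.9. Replicates are not stated to be separate mice, so the spread behind the p-values is that between libraries and could be technical. Low counts limit precision, and floors of 3 counts per library cover counting error only. The share of all features whose groups do not overlap was not counted, so separation of groups is described only.

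The members and lists were chosen with earlier results of these data known. Named were all called members, per comparison the 5 higher and 5 lower circRNAs and 3 higher and 3 lower host genes with the smallest p, the 10 circRNAs with the highest mean count, the 3 host genes per family with the highest level, the 5 with most circRNAs, and genes named by role. Rab31, Vps35l and the list genes Mvb12b, Rabgap1l and Dnm3 were named after their values were seen. Marker and pathway lists were counted, not picked. The junction sequence of 1 circle is not reported here.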

Additional observations from a re-analysis of the deposited data

Results flagged for a closer look

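In the groups of 5 libraries, 1 library stood far from the other 4 in 9 of 122 groups examined (61 members in 2 groups). The limit was a gap of over 0.71 of the range, which by chance flags about 1 in 20 groups of normally distributed values. CPM from low counts may not be so distributed, and the rate of chance flags here was not computed. The circle Snx13 novel_circ_014771 reached 88.1 CPM in MIRI+AICAR 2, from 14 counts, against 40.1 to 48.2 in the other MIRI+AICAR libraries. Tbc1d22a novel_circ_024312 was at 0 in MIRI+AICAR 3, against 24.0 to 25.2 CPM. Snx5 novel_circ_037328 stood out in both groups, at 200.4 CPM in MIRI+AICAR 3 against 101 to 120, and at 118 CPM in MIRI+Compound C 2 against 55.6 to 73.0. Vps13d novel_circ_045534 was at 375 CPM in MIRI+Compound C 1, against 280 to 303. Tbc1d14 novel_circ_048135 was at 497 CPM in MIRI+AICAR 4, against 392.4 to 421. Vps50 novel_circ_054065 was low in MIRI+AICAR 2, at 107 CPM against 168 to 183. The Exoc6 sum was at 247 CPM in MIRI+AICAR 5, against 155 to 176, and the Vps8 sum at 296 CPM in MIRI+AICAR 2, against 214 to 237. MIRI+AICAR 2 held 3 of the 9 values, and the groups of 3 libraries were not examined in this way.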

How the results depend on the processing

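Of 1163 values of 73 named results under the alternatives, 1106 kept their direction and their side of the threshold. Of the rest, 44 lost a call, 5 gained a call and 8 changed sign. A value with no adjusted p counted as kept if its direction held. Most named results were not called, so they had no call to lose. In the any-difference test, calls were lost in 14 of 21 alternatives for the called Snx13 circle and 6 of 22 for the Vps45 sum. In MIRI+Compound C against MIRI, they were lost in 5 of 16 for the Vps45 sum, 9 of 16 for Mvb12b and 10 of 16 for Rabgap1l. Dnm3 lost 0 of 18. The sign changes were in Tbc1d14 novel_circ_048145, in MIRI+AICAR against MIRI (0.410 without MIRI 1, 0.131 without MIRI 1 and MIRI+AICAR 5, and -1.01 to 0.410 over single left-out libraries) and MIRI+Compound C against MIRI (0.509, 0.513, and -0.90 to 0.509), and in MIRI+Compound C against MIRI in Exoc3l2 novel_circ_057905 (0.359, 0.368, and -1.43 to 0.359) and the Vps13a sum (0.022, 0.018, and -1.03 to 0.022). The count of member circRNAs called in MIRI against Sham went from 0 to 1 without the filter, and from 0 to 1 over left-out libraries. In the any-difference test it went from 1 to 2 without the filter and to 0 with a minimum count of 10, where the Snx13 circle was not tested, with the replicate block or without both libraries, and ran from 0 to 2 over single left-out libraries. In fits of the 2 groups alone, MIRI+AICAR against MIRI+Compound C called 1 circRNA, of Tbc1d22a, and 1 host gene, Exoc3l2, and MIRI+Compound C against MIRI called 0 host genes. Without both libraries the host gene counts were 0 in that comparison and 0 in the any-difference test. Over single left-out libraries they ran from 0 to 2 and from 0 to 1. The Vps45 sum kept its direction in MIRI+Compound C against MIRI under 16 alternatives, from -1.21 to -0.89, with adjusted p from 0.00610 to 0.297. The cause of these changes was not tested. The labels do not say that replicate numbers pair the libraries. The deviations of 20 same-numbered pairs correlated with r from -0.0214 to 0.0591 (median 0.0079). Pairs with other numbers had r from -0.0443 to 0.0426 (median -0.0017). At counts this low, such correlations cannot exclude a pairing. With the replicate block, Vps45 stayed called (-1.14, adjusted p = 0.0446) and Snx13 novel_circ_014771 (0.129), Mvb12b (0.0623) and Rabgap1l (0.151) were not. With only circRNAs of a host gene as denominator, the members' share moved by less than 1 SD in each group.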
